A study of Homo sapiens with 4 samples.

Results

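The 9 genes described here are known targets of the transcription factor p53: PLK2, PLK3, CDKN1A, BTG2, MDM2, ZMAT3, SESN1, TP53I3 and GDF15. They were taken by name from tables of 30148 genes for UMUC3 and 17752 genes for SW780, and all 9 were in both tables. PLK2 was selected on its measured levels, being lower in the knockdown of both lines, so the ratios of knockdown to control below are given as a description.

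RNA was sequenced from UMUC3 and SW780, both human bladder cancer cell lines, in 4 groups of 1 library each. The groups were UMUC3 shSCD1, UMUC3 shNT, SW780 shSCD1 and SW780 shNT. In the shSCD1 cells a lentivirus had been used to knock down SCD1, the enzyme that puts a double bond into saturated fatty acids (stearoyl-CoA desaturase, gene symbol SCD); the shNT cells have the genotype WT in the labels. The labels give neither the hairpin nor the number of cultures or clones behind a library, and UMUC3 was grown in MEM while SW780 was grown in DMEM, so line and medium cannot be told apart. With 1 library per group no replicate error can be given, and "higher" and "lower" speak of these libraries only. In RNA of whole cultures, fewer cells that express a gene and less of its RNA per cell cannot be told apart.

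The reads totalled 32540576 (shSCD1) and 22818368 (shNT) over the genes of the UMUC3 table, and 25549737 (shSCD1) and 34087871 (shNT) over those of the SW780 table. The tables name their libraries first and second; the second was read as shSCD1, since each table is named for shSCD1 and gives second over first. SCD was at 59.6 CPM in shSCD1 and 264 CPM in shNT cells of UMUC3, and at 92.1 and 592 CPM in SW780, where CPM is a gene's reads scaled to a table total of 1000000. If the columns stood in the other order in both tables, all the directions of shSCD1 against shNT below would turn round. Those of SW780 against UMUC3 would stay, with the names shSCD1 and shNT exchanged. Of 15 markers of urothelium, UMUC3 had 12 in its table, with uroplakin genes UPK1A, UPK1B and UPK2 at 0, 0 and 1 reads in shSCD1 and 4, 0 and 3 reads in shNT, and KRT19 at 0 reads in both. KRT8 was read there at 78.3 CPM in shSCD1 and 148 CPM in shNT cells and KRT18 at 170 and 372 CPM. The 6 markers with at least 1 CPM in a UMUC3 library had a median log2 ratio of -0.72, with KRT7 and KRT18 lower by more than 2-fold, and the summed level of the list was 264 CPM in shSCD1 and 536 CPM in shNT cells. SW780 had all 15, with KRT19 at 1618 CPM in shSCD1 and 2373 CPM in shNT cells, although KRT5 and KRT20 were under 1 CPM; of its 12 markers with at least 1 CPM, 10 had a log2 ratio below 0, UPK1A was lower by more than 2-fold, and the summed level was 10241 CPM in shSCD1 and 12439 CPM in shNT cells. Of 14 markers of blood, endothelial and fibroblast cells, the summed level was 52.3 CPM in shSCD1 and 72.4 CPM in shNT cells of UMUC3, most of it CD68, and 304 and 221 CPM in SW780, most of it COL3A1. PTPRC, the leukocyte marker, had 0 and 3 reads in SW780. Whether these marker shifts have a part in any ratio below was not tested.

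p53 is switched on by DNA damage and other stress, and it binds DNA as a tetramer at elements made of a pair of decamers. Its targets stop the cell cycle, start repair or cell death, adjust metabolism, and, through MDM2, turn p53 itself off again. Several of them also answer to other signals: PLK2 was first described as a serum-inducible kinase, BTG2 and PLK3 as immediate early genes, and GDF15 is induced through the ATF4 and CHOP branch of the stress response as well.

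The start sites of the 2 polo-like kinases are shown first, because PLK2 passed a 2-fold difference and PLK3 did not, beside windows of MDM2, which came closest to the p53 element, and SESN1, which held both an exact decamer and a near match. The sequences are RefSeq windows of 300 bases on GRCh38.p14, from 250 bases before a start site, given 5' to 3' on the gene's strand. Capitals mark the p53 element, as the whole paired element where it had at most 3 mismatches and otherwise as a single exact decamer. PLK2 is the minus-strand window chr5:58460037-58460336, PLK3 the plus-strand window chr1:44800127-44800426, MDM2 the third of its windows, at the internal start (chr12:68808767-68809066, plus strand), and SESN1 the third of its windows (chr6:109008939-109009238, minus strand).
PLK2: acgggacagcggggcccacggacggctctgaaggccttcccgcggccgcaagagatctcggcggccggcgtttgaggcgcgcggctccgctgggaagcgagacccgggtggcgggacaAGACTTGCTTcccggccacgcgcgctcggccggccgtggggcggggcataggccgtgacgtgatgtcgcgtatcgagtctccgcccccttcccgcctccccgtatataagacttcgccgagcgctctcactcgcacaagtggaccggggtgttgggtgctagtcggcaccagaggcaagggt
PLK3: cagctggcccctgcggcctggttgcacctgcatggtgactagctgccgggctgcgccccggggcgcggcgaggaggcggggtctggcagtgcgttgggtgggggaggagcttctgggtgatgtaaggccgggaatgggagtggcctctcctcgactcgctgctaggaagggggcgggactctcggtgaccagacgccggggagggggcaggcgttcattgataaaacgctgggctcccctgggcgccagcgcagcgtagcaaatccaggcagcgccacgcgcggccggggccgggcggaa
MDM2: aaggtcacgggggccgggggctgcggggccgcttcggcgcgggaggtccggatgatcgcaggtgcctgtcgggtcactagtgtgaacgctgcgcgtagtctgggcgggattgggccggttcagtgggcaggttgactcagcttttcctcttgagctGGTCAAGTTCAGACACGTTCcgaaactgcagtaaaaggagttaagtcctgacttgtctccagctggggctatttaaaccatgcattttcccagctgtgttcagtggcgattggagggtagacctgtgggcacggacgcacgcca
SESN1: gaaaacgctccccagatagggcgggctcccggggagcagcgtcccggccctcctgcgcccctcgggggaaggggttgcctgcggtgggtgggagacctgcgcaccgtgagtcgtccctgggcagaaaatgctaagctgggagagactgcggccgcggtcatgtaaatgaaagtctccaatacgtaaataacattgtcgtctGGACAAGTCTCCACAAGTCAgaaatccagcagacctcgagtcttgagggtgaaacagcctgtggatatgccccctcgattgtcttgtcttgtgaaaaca
The exact p53 decamer was in 6.63% of 35116 windows of all genes, searched on both strands, and in 2 of the 15 windows of the members, 1 each of PLK2 and SESN1. In PLK2 it was AGACTTGCTT, from 132 to 123 bases upstream of the start. The best paired element (spacer of 0 or 1 base) had 2 mismatches in the MDM2 window, which 1.34% of windows reach or better, and 3 mismatches in the SESN1 and GDF15 windows, reached by 9.75%. In the PLK2 and PLK3 windows the best paired element had 5 mismatches, as few as in 85.6% of windows. The GC box GGGCGG was in 13 of the 15 windows of the members, TP53I3 being without it, and in 45% of all windows. The CCAAT box (CCAAT) was in 9 of the 15 windows, 4 of them overlapping windows of MDM2, and in 34.6% of all windows. The TATA box TATAAA was in 1 of the 15, that of GDF15, and 11.5% of all, and TGACG in 3 of the 15, PLK2 included, and 24.6% of all. Only the exact string TATAAA was searched, so the variant TATATAAG, which the PLK2 window holds, was not counted. The windows are short, and a match is not evidence of binding.

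PLK2 was the one member past a 2-fold difference between shSCD1 and shNT, and it was lower in both lines. This serine/threonine kinase acts in centriole duplication and in the G1 to S step. In UMUC3 it had 2794 reads (85.9 CPM) in shSCD1 and 7801 reads (342 CPM) in shNT cells, 3.98-fold lower (95% counting interval 3.81 to 4.16). In SW780 it had 5295 reads (207 CPM) in shSCD1 and 16437 reads (482 CPM) in shNT cells, 2.33-fold lower (2.26 to 2.40). The log2 ratios, taken with 1 CPM added to each level, were -1.98 and -1.21. They ranked 53 from the lowest of 14063 genes with at least 1 CPM in UMUC3 and 91 from the lowest of 12880 in SW780. The size rule used here asks for a log2 ratio of 1 or more in either direction; 2.18% of these genes were lower by it in UMUC3, 1.06% in SW780, and 0.188% of 11152 genes in both lines (21 genes). PLK2 lies on chromosome 5 from 58453982 to 58460260 (GRCh38, GENCODE 29, minus strand), and it shares no exonic base with another gene.

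**Figure D1:**
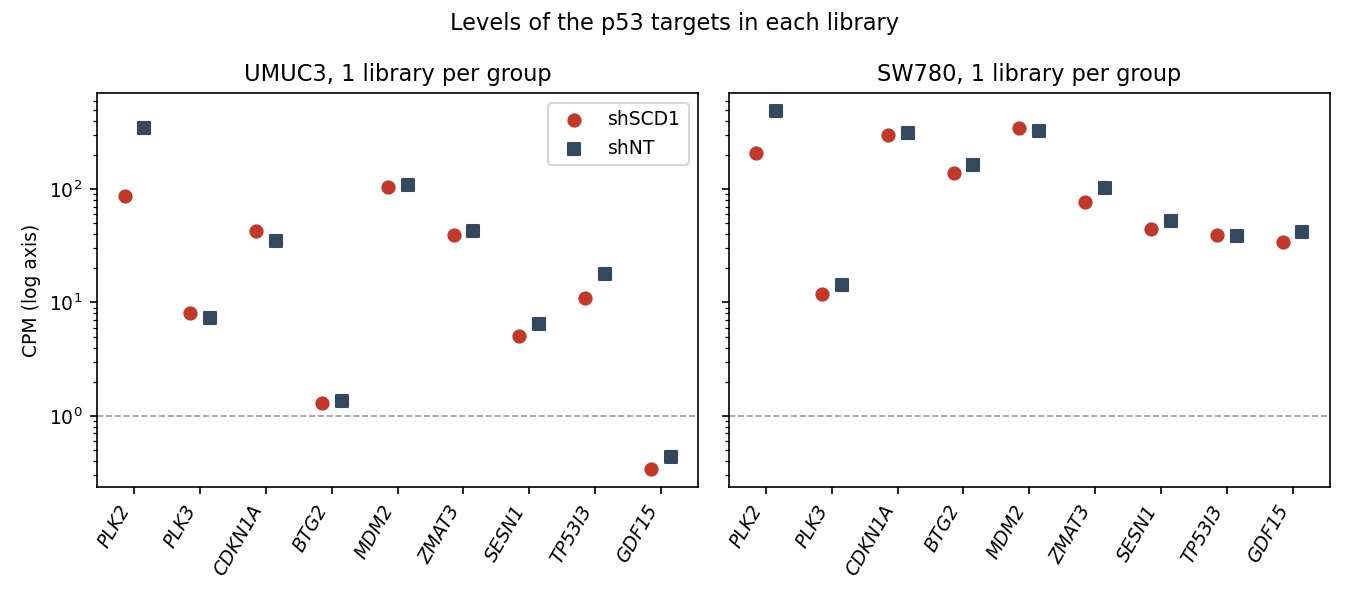
Levels of the 9 genes in CPM (vertical log axis) in UMUC3 (left) and SW780 (right); circles are the shSCD1 library and squares the shNT library of each line, 1 library per group, and the dashed line is 1 CPM. The gap between the symbols is widest for PLK2 in both lines (85.9 and 342 CPM in UMUC3, 207 and 482 CPM in SW780), and GDF15 lies under 1 CPM in UMUC3.

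PLK3, a related polo-like kinase of the stress response, was within 2-fold in both lines. It had 261 reads (8.02 CPM) in shSCD1 and 166 reads (7.27 CPM) in shNT cells of UMUC3, a fold of 1.10 (0.904 to 1.35). In SW780 it had 304 reads (11.9 CPM) in shSCD1 and 484 reads (14.2 CPM) in shNT cells, 1.19-fold lower (1.03 to 1.38). PLK2 stood far above PLK3 in every library. Per exonic length, the PLK2 level was 7.81 times that of PLK3 in shSCD1 and 34.3 times in shNT cells of UMUC3, and 12.7 and 24.8 times in SW780. PLK3 (chromosome 1, 44800225 to 44805990, plus strand) shares 2.24% of its exonic bases with TCTEX1D4 on the other strand. Of the other family members, PLK1, the mitotic kinase, was at 65.0 CPM in shSCD1 and 86.8 CPM in shNT cells of UMUC3 and at 98.6 and 77.2 CPM in SW780. PLK4, the master kinase of centriole duplication, was at 84.3 and 78.0 CPM in UMUC3 and at 34.1 and 34.4 CPM in SW780. PLK5 had 0 reads in both SW780 libraries.

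The expressed genes on either side of PLK2 were within 2-fold. GPBP1, the nearest gene with at least 1 CPM on the side of lower coordinates, lies 1189303 bases away, and its log2 ratio was 0.15 in UMUC3 and -0.02 in SW780. PDE4D, a phosphodiesterase gene 508778 bases away on the other side, had log2 ratios of -0.01 in UMUC3 and -0.57 in SW780, where it was at 28.2 CPM in shSCD1 and 42.4 CPM in shNT cells. Neither neighbour passed the size rule in either line. The same held for most genes with at least 1 CPM, 13410 of 14063 in UMUC3 and 12553 of 12880 in SW780.

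The cell cycle inhibitors among the members differed little. CDKN1A encodes p21, the inhibitor of cyclin-dependent kinases that carries much of the p53 arrest. It had 1382 reads (42.5 CPM) in shSCD1 and 800 reads (35.1 CPM) in shNT cells of UMUC3, 1.21-fold higher (1.11 to 1.32). In SW780 it had 7615 reads (298 CPM) in shSCD1 and 10532 reads (309 CPM) in shNT cells, a fold of 0.965 (0.937 to 0.994). BTG2, an antiproliferative partner of the CCR4-NOT deadenylase, was low in UMUC3, with 42 reads (1.29 CPM) in shSCD1 and 31 reads (1.36 CPM) in shNT cells. In SW780 BTG2 had 3517 reads (138 CPM) in shSCD1 and 5498 reads (161 CPM) in shNT cells, 1.17-fold lower (1.12 to 1.22). CDKN1A lies on chromosome 6 from 36676460 to 36687339 (plus strand) and shares 4.79% of its exonic bases with the lncRNA DINOL on the other strand. BTG2 lies on chromosome 1 from 203305491 to 203309602 (plus strand) and shares none.

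The feedback members, MDM2 and ZMAT3, were also within 2-fold. MDM2, the ubiquitin ligase that degrades p53, had 3418 reads (105 CPM) in shSCD1 and 2492 reads (109 CPM) in shNT cells of UMUC3, a fold of 0.962 (0.913 to 1.01). In SW780 MDM2 had 8769 reads (343 CPM) in shSCD1 and 10962 reads (322 CPM) in shNT cells, 1.07-fold higher (1.04 to 1.10). It lies on chromosome 12 from 68808176 to 68850686 (plus strand), and it shares 9.21% of its exonic bases with other genes, the carboxypeptidase M gene among them, so a part of its reads is uncertain. ZMAT3, an RNA-binding zinc finger protein of the p53 tumour suppressor pathway, had 1275 reads (39.2 CPM) in shSCD1 and 979 reads (42.9 CPM) in shNT cells of UMUC3, 1.10-fold lower (1.01 to 1.19). In SW780 ZMAT3 had 1963 reads (76.8 CPM) in shSCD1 and 3481 reads (102 CPM) in shNT cells, 1.33-fold lower (1.26 to 1.41). It lies on chromosome 3 from 179017223 to 179072279 (minus strand) and shares no exonic base.

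The stress and redox members were lower or level. SESN1, a sestrin that restrains mTORC1 signalling, had 165 reads (5.07 CPM) in shSCD1 and 146 reads (6.40 CPM) in shNT cells of UMUC3, 1.26-fold lower (1.00 to 1.59). In SW780 SESN1 had 1127 reads (44.1 CPM) in shSCD1 and 1785 reads (52.4 CPM) in shNT cells, 1.19-fold lower (1.10 to 1.28). TP53I3, a quinone oxidoreductase also called PIG3, was the member after PLK2 with the largest ratio in UMUC3. TP53I3 had 356 reads (10.9 CPM) in shSCD1 and 407 reads (17.8 CPM) in shNT cells there, 1.63-fold lower (1.41 to 1.88), but 1008 reads (39.5 CPM) and 1319 reads (38.7 CPM) in SW780, a fold of 1.02 (0.938 to 1.11). SESN1 lies on chromosome 6 from 108986437 to 109094819 (minus strand) and shares 7.09% of its exonic bases with an antisense gene, and TP53I3 lies on chromosome 2 from 24077433 to 24085861 (minus strand) and shares 3.46% with FAM228B on the other strand. Whether the counting used strand is not given in the sources used here, so reads in such shared bases cannot be assigned.

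GDF15, a secreted cytokine of the TGF-beta superfamily, was read in SW780 and barely in UMUC3. It had 11 reads in shSCD1 and 10 reads in shNT cells of UMUC3, under 1 CPM in both, so it was left out of the counts for that line. In SW780 GDF15 had 875 reads (34.2 CPM) in shSCD1 and 1416 reads (41.5 CPM) in shNT cells, 1.21-fold lower (1.11 to 1.32). It lies on chromosome 19 from 18374731 to 18389176 (plus strand) and shares no exonic base with another gene.

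**Figure D2:**
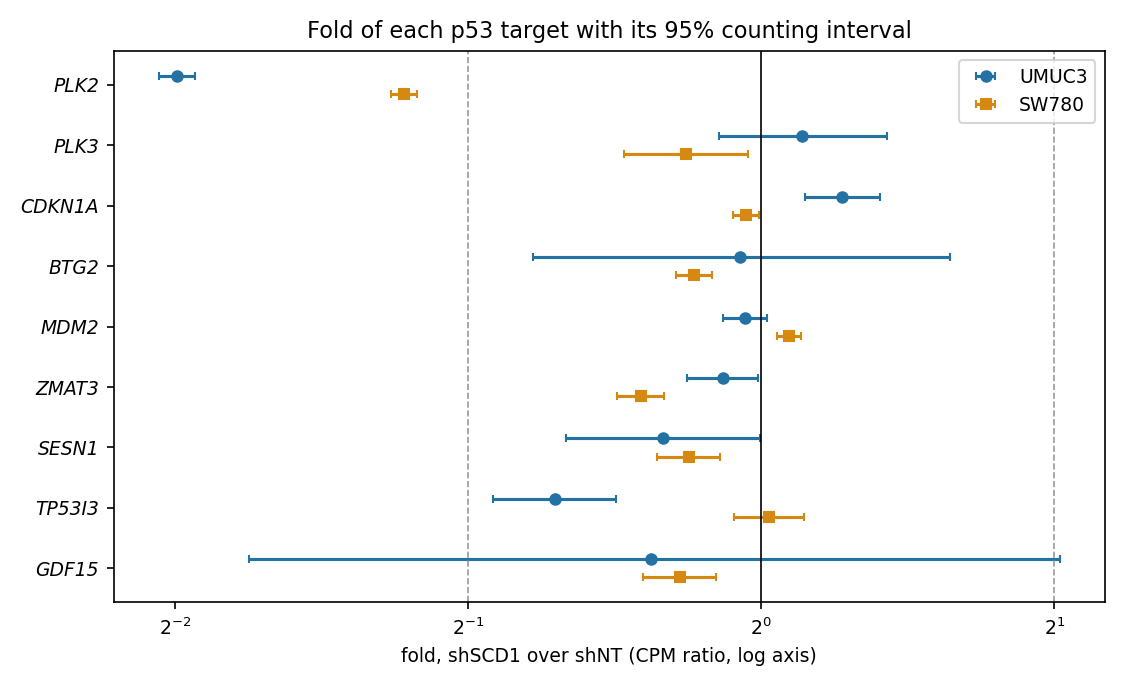
Fold of each gene, shSCD1 over shNT (horizontal log axis, CPM without an added value), in UMUC3 (circles) and SW780 (squares); bars are exact 95% intervals for counting error only, and dashed lines mark 2-fold. PLK2 lies left of the 2-fold line in both lines, at 0.251 and 0.430, and TP53I3 in UMUC3 (0.613) is the next of the genes with at least 1 CPM.

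Counted together, 8 of the 9 genes had at least 1 CPM in UMUC3 and all 9 in SW780. By the size rule, 1 of 8 was lower and 0 higher in UMUC3, and 1 of 9 was lower and 0 higher in SW780, against 2.18% lower and 2.47% higher of all genes in UMUC3 and 1.06% and 1.48% in SW780. The lower one was PLK2 each time, which was chosen for this. The median log2 ratio was -0.09 over the 8 genes in UMUC3, where the median of all genes was 0.04, and -0.24 over the 9 in SW780, where the median of all genes was -0.0079. Without PLK2 the others spanned -0.66 to 0.27 in UMUC3 (median -0.06) and -0.41 to 0.09 in SW780 (median -0.23). The counting interval of the fold lay below 1 for 4 members and above 1 for 1 (CDKN1A) in UMUC3, where it did so for 29.6% and 35.9% of all genes. In SW780 it lay below 1 for 7 members and above 1 for 1 (MDM2), against 29.8% and 28% of all genes. At this depth a counting interval leaves out 1 for a large part of all genes, so it separates libraries and not conditions. At 1.5-fold, 2 of 8 members (PLK2 and TP53I3) were lower in UMUC3 and 1 of 9 (PLK2) in SW780, against 6.86% and 3.7% of all genes, and 0 were higher in either line, against 10.1% and 5.05%. By the sign of the GFOLD value in the authors' deposited table, a log2 fold change shrunk for counting error, 5 members were below 0 and 1 above in UMUC3, against 34.9% and 25.8% of all genes, and 6 were below and 1 above in SW780, against 26% and 25.7%. In count tests over both lines with the line as a block, edgeR called 0 members and 0% of 13087 genes lower, and DESeq2 called 1 member, PLK2, and 0.153% of genes lower; these take the lines as replicates, and as PLK2 was chosen on the same contrast its call is no independent evidence.

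The lines differed more from each other than the knockdown from its control for most members. Levels between the tables are given in CPM over the 15415 genes in both, as the tables were scaled separately. In shNT cells BTG2 was at 164 CPM in SW780 and 1.40 CPM in UMUC3, a fold of 117 (82.5 to 173), and GDF15 at 42.3 and 0.452 CPM, a fold of 93.6 (50.8 to 196). CDKN1A was at 315 CPM in SW780 and 36.1 CPM in UMUC3 (8.70-fold higher in SW780, 8.10 to 9.37), and SESN1 at 53.3 and 6.60 CPM (8.08-fold, 6.83 to 9.64). MDM2, ZMAT3, TP53I3 and PLK3 were between 1.93-fold (PLK3) and 2.91-fold (MDM2) higher in SW780.

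PLK2 was the member nearest to level between the control libraries, at 491 CPM in SW780 and 352 CPM in UMUC3, a fold of 1.39 (1.36 to 1.43). In the shSCD1 libraries the difference was wider, at 211 CPM in SW780 and 88.6 CPM in UMUC3, a fold of 2.38 (2.27 to 2.49). All 9 members were higher in SW780 in both pairs of libraries, as were 56.8% of all genes between the shSCD1 libraries and 58.2% between the shNT libraries. By the size rule 7 of 9 were higher in SW780 in each pair, against 26.9% of genes between the shSCD1 libraries and 27.3% between the shNT libraries. PLK2 and PLK3 were the members under it in shNT, and PLK3 and ZMAT3 in shSCD1. MDM4, the other inhibitor of p53, was at 35.4 CPM in shSCD1 and 44.2 CPM in shNT cells of SW780 and at 25.0 and 24.4 CPM in UMUC3.

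**Figure D3:**
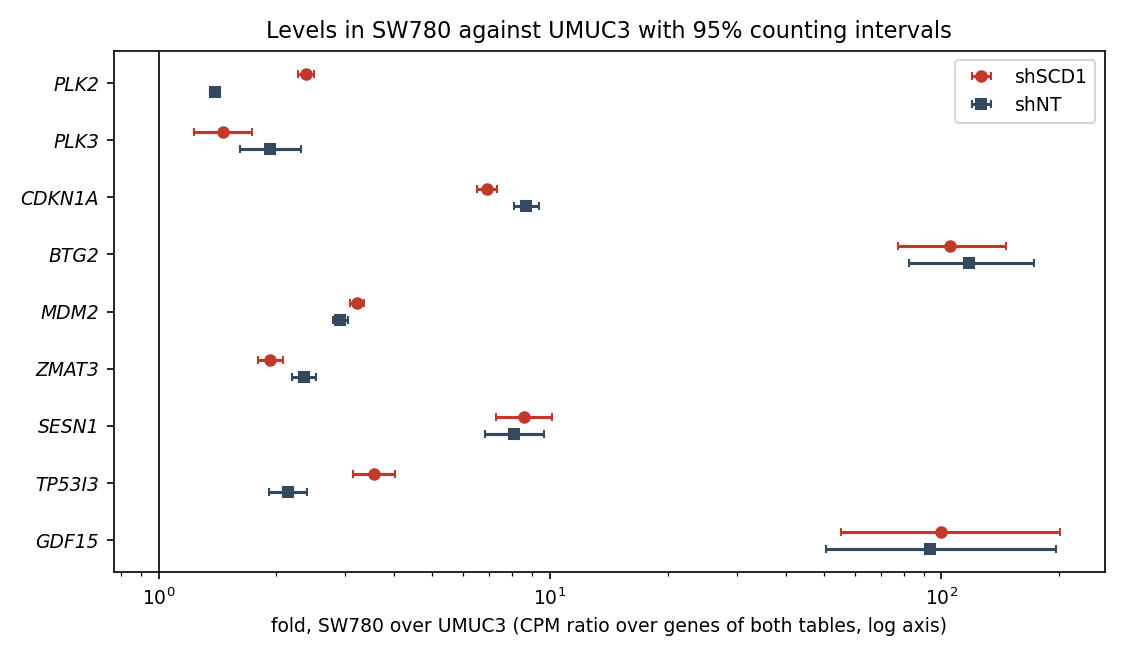
Fold of each gene, SW780 over UMUC3 (horizontal log axis, CPM over the genes of both tables), between the shSCD1 libraries (circles) and between the shNT libraries (squares), with exact 95% counting intervals. All 9 genes lie right of 1; BTG2 (105 and 117) and GDF15 (99.7 and 93.6) lie farthest, and PLK2 in shNT (1.39) nearest.

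The rank of the members by level per exonic length also differed between the lines. In SW780, CDKN1A and PLK2 were level with each other in shNT cells, the PLK2 level being 0.998 times that of CDKN1A per exonic length, and it was 0.445 times in shSCD1 cells. In UMUC3 the PLK2 level was 1.29 times that of CDKN1A in shSCD1 and 6.24 times in shNT cells. CDKN1A stood above MDM2 per length in every library, at 1.76 times in shSCD1 and 1.40 times in shNT cells of UMUC3, and at 3.78 and 4.18 times in SW780. That order rests on the length used, every base in any annotated exon, which is 13284 for MDM2 and 3050 for CDKN1A. In CPM, MDM2 stood above CDKN1A in every library. The levels were 105 and 42.5 CPM in shSCD1 and 109 and 35.1 CPM in shNT cells of UMUC3. In SW780 they were 343 and 298 CPM in shSCD1 and 322 and 309 CPM in shNT cells.

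The p53 response was then read over 63 other targets, listed by role. Of these, 52 had at least 1 CPM in UMUC3, with 3 lower and 0 higher by the size rule and a median log2 ratio of -0.03. All 63 did in SW780, with 0 lower and 2 higher and a median of -0.04. Over all genes 2.18% were lower and 2.47% higher in UMUC3, and 1.06% and 1.48% in SW780, with medians of 0.04 and -0.0079. Of the targets, 25 of 52 were above 0 in UMUC3 and 25 of 63 in SW780, beside 54.3% and 48.5% of all genes. None passed the size rule in the same direction in both lines. Of 11152 genes with at least 1 CPM in both lines, only 0.188% were lower in both, and the share higher in both was not computed.

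Among the arrest genes, GADD45A, which binds p21 and PCNA in the damage response, was at 64.2 CPM in shSCD1 and 155 CPM in shNT cells of UMUC3, 2.41-fold lower (2.28 to 2.54). In SW780 GADD45A was at 108 CPM in shSCD1 and 94.1 CPM in shNT cells, 1.15-fold higher (1.09 to 1.21). CCNG1, which encodes cyclin G1, was at 213 and 270 CPM in UMUC3 and at 266 and 272 CPM in SW780. SFN, the 14-3-3 sigma gene, was at 208 CPM in shSCD1 and 213 CPM in shNT cells of SW780, and had 0 and 2 reads in UMUC3. None of 14 death and death receptor genes passed the size rule in UMUC3 and none of 19 in SW780, with medians of -0.02 and 0.0075. Most genes with at least 1 CPM did not pass it either, 13410 of 14063 in UMUC3 and 12553 of 12880 in SW780. BAX, the pore-forming death effector, was at 59.9 and 56.5 CPM in UMUC3 and at 188 and 169 CPM in SW780, and FAS, a death receptor, at 18.4 and 30.5 CPM in UMUC3 and at 61.3 and 57.3 CPM in SW780.

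Repair, metabolic and feedback targets stayed within 2-fold as well. So did most genes with at least 1 CPM, 13410 of 14063 in UMUC3 and 12553 of 12880 in SW780. None of 7 repair genes passed the size rule in either line, with medians of -0.06 in UMUC3 and -0.08 in SW780; DDB2, which recognises ultraviolet damage, was at 114 CPM in shSCD1 and 126 CPM in shNT cells of SW780. None of 10 metabolic genes passed in UMUC3 and none of 12 in SW780, with medians of -0.0029 and -0.19. Of the sestrin genes, SESN2 was at 89.9 and 88.8 CPM in UMUC3 and at 34.5 and 31.1 CPM in SW780, and SESN3 at 27.7 CPM in shSCD1 and 47.4 CPM in shNT cells of SW780, with 2 and 18 reads in UMUC3. None of 7 feedback genes passed in UMUC3 and none of 9 in SW780. PPM1D, the phosphatase that dampens p53 signalling, was at 13.1 CPM in shSCD1 and 17.4 CPM in shNT cells of UMUC3 and at 35.7 and 36.2 CPM in SW780.

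The secreted and surface targets held the largest ratios, in opposite directions. Of 10 in UMUC3, 2 were lower and 0 higher, and of 11 in SW780, 2 were higher and 0 lower. THBS1, which encodes the matrix protein thrombospondin 1, had 37 reads in shSCD1 and 319 reads in shNT cells of UMUC3, but was at 1519 and 519 CPM in SW780, 2.93-fold higher (2.87 to 2.98). TGFA, a ligand of the EGF receptor, had 43 reads in shSCD1 and 90 reads in shNT cells of UMUC3, and it no longer passed the size rule with 5 CPM added to each level, and a filter of 5 CPM left it out. In the same SW780 libraries 4 of 5 listed mesenchymal genes had at least 1 CPM. Of these, VIM, CDH2 and FN1 were higher by the size rule, and 1 was below 0 (log2 ratio -0.31). VIM had 281 reads in shSCD1 and 21 reads in shNT cells of SW780. In UMUC3, 4 of the 5 were below 0 (median -0.40) and none passed the size rule. Whether these mesenchymal ratios have a part in the THBS1 ratios was not tested.

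**Figure D4:**
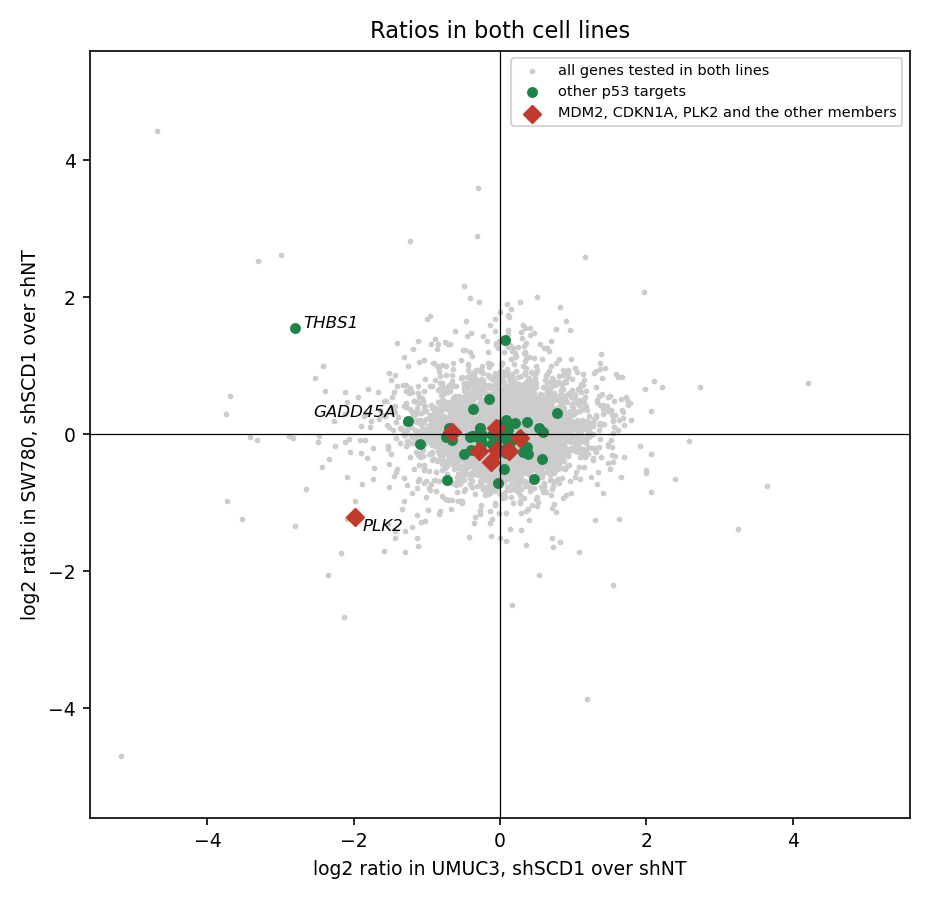
Log2 ratio of shSCD1 over shNT (CPM plus 1) in UMUC3 (horizontal) and SW780 (vertical) for 11152 genes with at least 1 CPM in both lines (grey; 1 gene lies outside the axes), with the other p53 targets (green circles) and the members (red diamonds). PLK2 stands apart from the other members at -1.98 and -1.21, and THBS1 lies at the upper left. The green point of PTP4A1 pairs different gene entries of that name, at 0.47 in UMUC3 and -0.65 in SW780.

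Genes around p53 and downstream of p21 were set beside the members. Of 18 genes of the p53 family and its regulators in UMUC3 and 20 in SW780, none passed the size rule, with medians of 0.0047 and -0.03. For this list and those that follow, 13410 of all 14063 genes in UMUC3 and 12553 of 12880 in SW780 did not pass it either. Cell cycle genes that p53 lowers through p21 and the DREAM complex, such as CDK1 and CCNB1, had a median of -0.14 over 23 genes in UMUC3, with 15 below 0, and of 0.18 over 23 genes in SW780, with 19 above 0, beside 45.7% of all genes below 0 in UMUC3 and 48.5% above 0 in SW780. None of them passed the size rule in either line. Of the CDK inhibitor genes, a list that includes the member CDKN1A, none of 6 passed in UMUC3 and none of 5 in SW780. CDKN1B, which encodes p27, was at 137 and 161 CPM in UMUC3 and at 53.9 and 63.1 CPM in SW780. Of the BTG and TOB genes, BTG3 was at 81.5 CPM in shSCD1 and 39.8 CPM in shNT cells of UMUC3, a log2 ratio of 1.01 just past the size rule, and 0.98 with ratios centred on the median of all genes.

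Since PLK2, PLK3, BTG2 and GDF15 answer to signals other than p53, lists for these were read too. Of 19 immediate early genes in each line, 13 were below 0 in UMUC3 (median -0.43) and 12 in SW780 (median -0.10), beside 45.7% and 51.5% of all genes, and 1 passed the size rule, in UMUC3. That was DUSP1, a MAP kinase phosphatase, at 59.8 CPM in shSCD1 and 122 CPM in shNT cells of UMUC3 (log2 ratio -1.01), and at 36.4 and 69.8 CPM in SW780 (-0.92). EGR1, a zinc finger factor of the serum response, was at 2.86 CPM in shSCD1 and 5.08 CPM in shNT cells of UMUC3 and at 6.42 and 13.5 CPM in SW780, with log2 ratios of -0.66 and -0.97. FOS, of the same class, was at 1.81 and 1.36 CPM in UMUC3 and at 5.91 and 5.28 CPM in SW780. Ratios of similar size lay on both sides, as the immediate early genes ran from -1.01 to 0.96 in UMUC3 and from -0.97 to 0.84 in SW780. Of 12 genes of the ATF4 and CHOP branch in UMUC3, 8 were above 0 (median 0.32) and DDIT3, which encodes CHOP, was lower by the size rule, at 32.0 CPM in shSCD1 and 118 CPM in shNT cells. In SW780, 7 of 11 were above 0 (median 0.07) and none passed, with DDIT3 at 7.95 and 8.45 CPM.

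**Figure D5:**
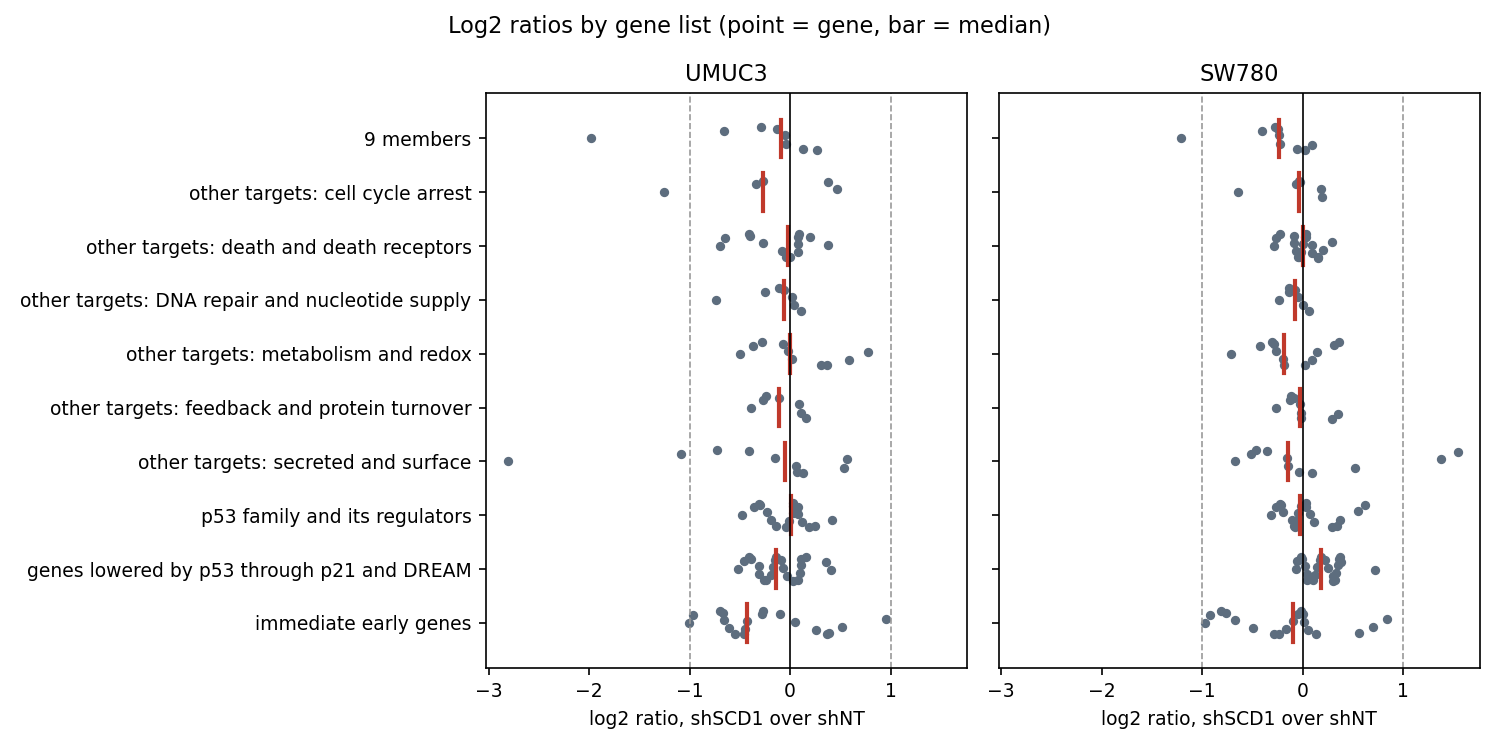
Log2 ratio of shSCD1 over shNT (horizontal, CPM plus 1) by gene list in UMUC3 (left) and SW780 (right); each point is a gene with at least 1 CPM, red bars are list medians and dashed lines mark 2-fold. PLK2 is the point at the far left of the top row in both lines, and 8 of the 9 members are drawn for UMUC3; of the lists drawn, the immediate early genes have the lowest median in UMUC3 (-0.43).

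The genes most like PLK2 were found by the distance between pairs of log2 ratios, UMUC3 and SW780, over 9601 genes with at least 5 CPM in a library of each line. The 5 nearest were COL5A1, a fibrillar collagen gene (distance 0.109), ST3GAL5, a ganglioside synthase gene (0.240), SEMA3A, an axon guidance gene (0.459), TNC, which encodes tenascin C (0.574), and ATP8B1, a phospholipid flippase gene (0.599). COL5A1 was at 3.32 CPM in shSCD1 and 17.4 CPM in shNT cells of UMUC3, and at 36.2 and 86.5 CPM in SW780. ST3GAL5 was at 3.07 and 15.2 CPM in UMUC3, and at 30.8 and 61.4 CPM in SW780. None of the 5 is among the 63 other p53 targets listed. Those 63 are at most a small part of the 9601 genes searched, so most sets of 5 would hold none. The likeness rests on 4 libraries.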

How the data were processed

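RNA-seq of 4 libraries was read from 1 table per cell line. Reads had been placed on hg38 (per the submitters' processing notes). Which aligner, counter, annotation and strand setting they used is not given in the sources used here. Per the file headers, the tables hold 2 columns named RPKM, a log2 fold change, a GFOLD value (a shrunken log2 fold change, setting 0.01) and an empirical FDR; the authors' deposited FDR, a q-value, is 1 throughout and was left aside. The deposited signal in the RPKM columns is a read count times 1 constant per column, with no length in it: 100% of values up to 20 reads, and at least 99.9% of all values above 0, came within 0.1 reads of a whole number, so whole reads were recovered. CPM was computed from these reads.

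Log2 ratios used CPM plus 1, over genes reaching 1 CPM in 1 library or both (14063 in UMUC3, 12880 in SW780); the size rule was a log2 ratio of at least 1. The 95% interval of a fold comes from the exact Clopper-Pearson interval of the share of a gene's reads in shSCD1; it covers counting error only, and PCR copies of a molecule count as separate reads, as the sources used here name no molecular identifiers. A count of 0 allows up to 3 reads, equal to 0.0922 CPM in UMUC3 shSCD1, 0.131 in UMUC3 shNT, 0.117 in SW780 shSCD1 and 0.0880 in SW780 shNT. Positions, exon lengths and overlaps came from GENCODE 29, sequences from RefSeq on GRCh38.p14, and names were those in the files, or were looked up by Ensembl ID where absent (GDF15 in UMUC3). Where several entries shared a name, the entry with most reads in that line was taken. For PTP4A1, among the other p53 targets, this gave different entries in UMUC3 and SW780, and the SW780 entry is among those lower at 1.5-fold. Count tests on the recovered reads of both lines, blocked on cell line, used edgeR 4.0.16 and DESeq2 1.42.0. Computations were tested on simulated data. Named genes were the members, SCD, up to 4 genes per list and line past the size rule with at least 5 CPM, up to 2 defining genes per list, p53 targets past the rule in both lines, and the 5 genes nearest to PLK2; TGFA, CDKN1B, the polo-like kinase and sestrin relatives, the neighbours of PLK2, CD68, COL3A1, PTPRC and a few keratin and uroplakin genes were named after their values were seen. Values of some listed genes are not reported here. The members and lists were chosen with earlier results of these data known.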

Additional observations from a re-analysis of the deposited data

Results flagged for a closer look

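The members, and those other p53 targets that passed the size rule in a line with at least 5 CPM, were searched for ratios that went opposite ways in the lines with both counting intervals leaving out 1. With 1 library per group the difference was not tested. CDKN1A had a log2 ratio of 0.27 in UMUC3 and -0.05 in SW780, a difference of 0.32 (UMUC3 minus SW780). GADD45A had -1.26 in UMUC3 and 0.20 in SW780, a difference of -1.45. THBS1 had -2.81 in UMUC3 and 1.55 in SW780, a difference of -4.36. Genes outside that search met the same condition, among them PLK1 (-0.41 in UMUC3 and 0.35 in SW780), FAS (-0.70 and 0.10) and VIM (-0.31 and 2.89).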

How the results depend on the processing

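The labels carry no replicate numbers and each group holds 1 library, so the only pairing was by cell line, used as the block in the count tests. Over 9 alternatives of pseudocount, filter, scaling and the authors' log2 fold change, no member's ratio changed sign. A filter leaves a ratio as it is, and a pseudocount cannot turn its sign. Only the scalings and the authors' fold change could have turned one. PLK2 stayed between -2.07 and -1.93 in UMUC3 and between -1.22 and -1.20 in SW780. At a 1.5-fold rule, 2 members were lower in UMUC3, PLK2 and TP53I3, and the other p53 targets counted 7 lower and 2 higher in UMUC3 and 3 lower and 2 higher in SW780, beside 6.86% and 10.1% of all genes in UMUC3 and 3.7% and 5.05% in SW780. With a pseudocount or a filter of 5 CPM, 2 of the other targets rather than 3 were lower in UMUC3. With the authors' deposited GFOLD value above or below 0, which asks for no size, 5 members were lower and 1 higher in UMUC3 (34.9% and 25.8% of all genes) and 6 lower and 1 higher in SW780 (26% and 25.7%), and of the other p53 targets 21 were lower and 9 higher in UMUC3 and 21 lower and 13 higher in SW780. Over both lines edgeR called 0 members and 0 of 13087 genes at an adjusted p under 0.05 (425 at an unadjusted p under 0.05), and DESeq2 called 27 genes, 20 of them lower and 1 of them a member. Depth limits BTG2 (42 reads in shSCD1, 31 in shNT) and GDF15 (11 and 10 reads) in UMUC3.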
